A study of Mus musculus with 5 samples.

Results

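The nuclear-encoded subunits of the mitochondrial respiratory chain and ATP synthase were followed in kidneys of mice given DMXAA or vehicle. The members were genes with symbols given to subunits of the 5 complexes. Complex I symbols began with Nduf, then a, b, c, s or v and a digit, and complex II symbols were Sdha, Sdhb, Sdhc and Sdhd. Symbols began with Uqcr for complex III, Cox4 to Cox8 and a letter for complex IV, and Atp5 for complex V. Pseudogenes marked -ps were left out, and at least 10 reads summed over all libraries were required. The rule was met by 85 of the 54532 genes counted: 39 in complex I, 4 in complex II, 8 in complex III, 17 in complex IV and 17 in complex V. Another 4 matching genes (Cox7b2, Cox8c, Ndufa11b and a second Atp5o entry) had 0 reads in every library and were not members. By annotation 82 members are protein-coding, and Ndufb4c, Ndufs6b and Cox6c2 are processed pseudogenes that carry no -ps suffix. The label holds for most genes as named, with some exceptions of role. Ndufa4 is now known as a subunit of complex IV, Ndufa4l2 is its paralogue, Cox7a2l links complexes into supercomplexes, and Atp5s is named for a coupling factor rather than a core subunit. There were also exceptions of level. Cox8b met the read minimum only through vehicle library 1, which held 223 of its 228 reads, and Cox6c2 had 14 reads in all.

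All mice were wild-type C57BL/6J males, 8 weeks old. The vehicle group (3 libraries) and the DMXAA group (2 libraries, 10 mg/kg) were both injected intraperitoneally each day for 3 days, and kidneys were taken on day 3. DMXAA binds STING of the mouse, the adaptor protein through which DNA in the cytosol induces interferon. The labels number the samples as replicates without saying that each came from a separate animal, so p-values measure the spread between these samples, which may be technical.

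The respiratory chain passes electrons from NADH (complex I) and succinate (complex II) through complex III and cytochrome c to oxygen at complex IV, and complex V uses the resulting proton gradient to make ATP. Complex II is encoded wholly in the nucleus, whereas the other complexes combine nuclear subunits with core subunits made from mitochondrial DNA. Kidney tubules, the proximal tubule and thick ascending limb above all, are among the tissues richest in mitochondria, because sodium reabsorption consumes ATP. Most nuclear subunits are small accessory proteins with short transcripts, while the catalytic core of complex I, the flavoprotein of complex II and the catalytic head of ATP synthase are larger.

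Nuclear respiratory genes are known for promoters that bind NRF1, ETS factors of the GABPA type and YY1, so promoter sequences are shown for Ndufa1, Uqcr11 and Cox8b, which the results below describe, and for the 2 members with 3 matches each, Sdha and Ndufb4. Cox6c and Ndufa4l2 had no entry. RefSeq promoter windows on GRCm38.p6, 250 bases before to 50 after the transcription start, matched 65 of the 82 protein-coding members. The NRF1 letters (GCGCA, any base, GCGC, on either strand) were found for 17 of the 65 members (26.2%), against 10.2% of 11600 other tested genes. The YY1 letters AAGATGGC (or GCCATCTT) were found for 9 members (13.8%, against 4.72%), and 7 of these 9 were in complex I. The ETS letters CCGGAAGT (or ACTTCCGG) were found for 5 members (7.69%, against 8.3%). Counted by gene with a window, the NRF1 letters were found for 6 of 13 genes of complex V, 7 of 32 of complex I, 2 of 3 of complex II, 1 of 5 of complex III and 1 of 12 of complex IV. A match is a description of the letters and not evidence of binding. In the 250 bases upstream of the start, given 5′ to 3′ along the gene's strand with matched letters in capitals, Ndufa1 (chrX:37191239-37191488, minus strand) and Cox8b (chr7:140900447-140900696, minus strand) had no match, Uqcr11 (chr10:80406822-80407071, minus strand) had an ETS match, and Sdha (chr13:74350241-74350490, minus strand) and Ndufb4 (chr16:37654369-37654618, minus strand) had 3 NRF1 matches each.
Ndufa1: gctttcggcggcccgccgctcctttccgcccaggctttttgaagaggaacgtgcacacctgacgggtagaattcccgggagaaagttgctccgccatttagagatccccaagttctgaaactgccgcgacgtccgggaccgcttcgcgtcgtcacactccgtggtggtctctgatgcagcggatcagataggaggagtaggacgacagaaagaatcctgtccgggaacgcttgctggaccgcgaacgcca
Uqcr11: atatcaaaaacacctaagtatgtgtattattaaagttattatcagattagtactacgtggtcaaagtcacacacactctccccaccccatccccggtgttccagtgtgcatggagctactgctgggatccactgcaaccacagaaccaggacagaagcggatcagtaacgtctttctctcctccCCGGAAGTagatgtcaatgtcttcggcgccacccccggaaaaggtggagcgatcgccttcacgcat
Sdha: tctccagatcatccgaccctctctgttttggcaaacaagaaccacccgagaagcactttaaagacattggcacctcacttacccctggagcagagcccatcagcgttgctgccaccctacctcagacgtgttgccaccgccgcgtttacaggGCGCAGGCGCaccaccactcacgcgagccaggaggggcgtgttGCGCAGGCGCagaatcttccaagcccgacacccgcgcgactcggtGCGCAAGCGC
Ndufb4: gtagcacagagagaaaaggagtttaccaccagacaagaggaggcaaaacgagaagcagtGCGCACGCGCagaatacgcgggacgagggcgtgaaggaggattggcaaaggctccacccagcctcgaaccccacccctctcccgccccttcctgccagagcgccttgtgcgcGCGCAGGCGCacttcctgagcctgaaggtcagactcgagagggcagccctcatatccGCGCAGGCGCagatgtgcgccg
Cox8b: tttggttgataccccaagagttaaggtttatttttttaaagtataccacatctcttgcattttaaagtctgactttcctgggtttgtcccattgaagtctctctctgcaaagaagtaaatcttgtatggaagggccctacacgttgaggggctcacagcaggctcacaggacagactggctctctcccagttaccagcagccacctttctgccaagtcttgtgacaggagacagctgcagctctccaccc
The Cox8b window, that of an isoform of muscle and brown fat, held 1 CpG and 47.2% G and C, the fewest CpGs of the 70 member windows, which held up to 35. The Ndufa1 window held 25 CpGs and 59.6% G and C, and the Uqcr11 window 11 CpGs and 49.6%.

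Library totals ran from 17667490 to 20264228 reads, so a count of 0 in a library allows a level of up to 0.148 to 0.170 CPM (read counts scaled to a common library size), on a limit of 3 counts that allows for counting error alone. The members took 2.20, 2.41 and 2.31% of all reads in vehicle libraries 1 to 3 and 2.18 and 2.30% in the DMXAA libraries. Kidney identity was clear in every library, with the proximal tubule phosphate transporter Slc34a1 at 2967 to 4218 CPM and the loop of Henle gene Umod at 2812 to 5567 CPM. Vehicle library 1 stood apart by other tissues: the summed markers of adipocytes (7 genes) were at 621 CPM there and at 43.7 to 71.2 CPM elsewhere, those of brown adipocytes (4 genes) at 91.1 CPM and 0.0555 to 0.832 CPM, and those of urothelium (7 genes) at 118 CPM and 2.44 to 13.1 CPM. Levels are CPM normalised by the trimmed mean of M-values (TMM). A log2 fold change compares DMXAA with vehicle and carries its standard error (SE), and p-values are two-sided from edgeR's quasi-likelihood test, adjusted by Benjamini-Hochberg over all 16226 genes that passed the expression filter.

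Respiratory subunit transcripts were at nearly the same level in both groups. None of the 82 members that passed the filter was called at an adjusted p below 0.05, and edgeR called 0 of 16226 genes (0%) in the whole table. DESeq2 called 54 genes and 0 members. An unadjusted p below 0.05 was found for 4 of the 82 members (4.88%) and for 1062 of all genes (6.55%). The median log2 fold change of the members was -0.06, against -0.01 over all tested genes, with quartiles of -0.14 and 0.02. Estimates lay below 0 for 61 of 82 members (74.4%), and above 0 for 21, where the shares of all tested genes were 53.1% and 46.9%. The members that did not enter the test were Cox6a2, Cox6c2 and Cox8b.

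Precision was high for these abundant transcripts, with a median SE of 0.12. For 79 of the 82 members the 95% interval of the log2 fold change lay within 1 unit of 0 and so did not include a 2-fold change in either direction. For 65 of them it lay within 0.5 units. The exceptions to the wider bound were the low-abundance genes Cox4i2 and Ndufa4l2 and the pseudogene Ndufs6b. A p above the threshold does not show that the groups were equal.

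**Figure D1:**
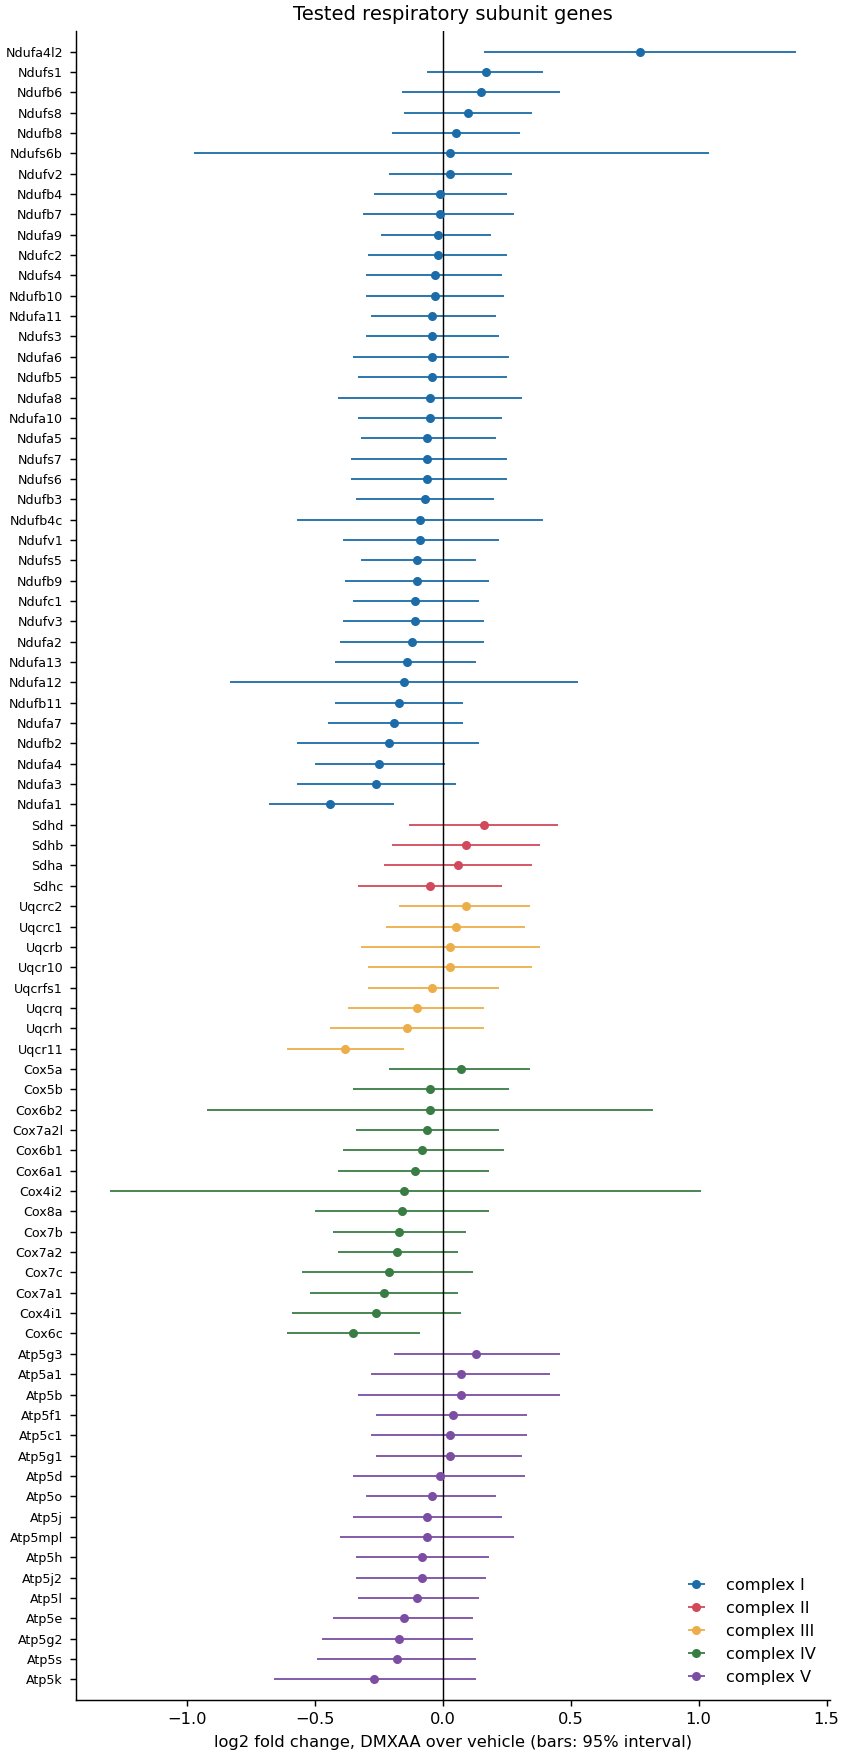
Log2 fold change (DMXAA over vehicle, x axis) of 81 of the 82 tested members, ordered within its complex, with bars for the 95% interval from edgeR's fit. The estimates of complex II lie between -0.05 and 0.16, 13 of the 14 of complex IV lie left of 0, and Ndufa4l2 at 0.77 lies farthest right.

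The libraries of the vehicle group differed from each other more than the groups did. In vehicle library 2 the level was the highest of the 5 libraries for 68 of 82 members (82.9%), where that library was highest for 25.8% of all tested genes. Vehicle library 1 was the lowest for 41 of 82 members (against 23.6% of all genes). It was the highest for 0 members. Relative to each gene's mean over the 5 libraries on the log2 scale, the median member was at -0.090, 0.183 and -0.019 in vehicle libraries 1 to 3 and at -0.078 and 0.014 in the DMXAA libraries, so both DMXAA libraries lay inside the vehicle range. The pooled SD of this median between replicates of a group was 0.121, larger than the difference between groups. The pattern was shared by all 5 complexes: vehicle library 2 was highest for 32 of 39 members of complex I, 3 of 4 of complex II, 7 of 8 of complex III, 11 of 14 of complex IV and 15 of 17 of complex V. Without vehicle library 2 the median log2 fold change of the members was 0.03, with 33 of 82 estimates below 0. Without vehicle library 1 it was -0.13, with 70 below 0.

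**Figure D2:**
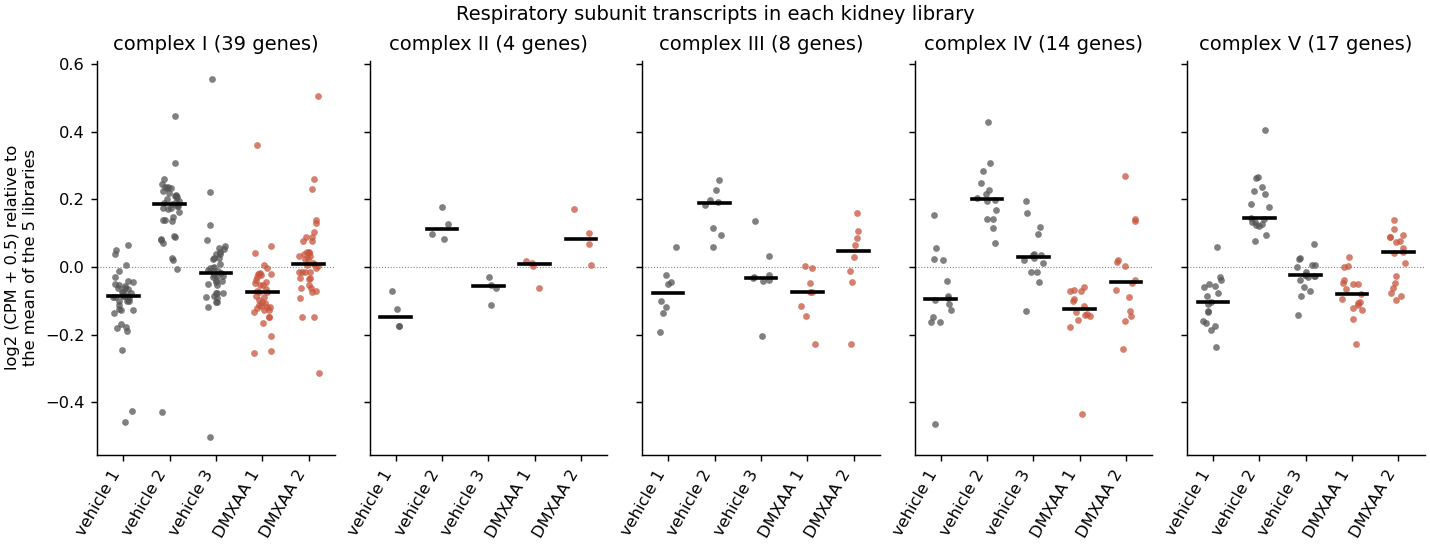
Level of each tested member in each library, as log2 (CPM + 0.5) relative to its mean over the 5 libraries (y axis), by complex, with black bars for the median and red points for DMXAA. In every complex the median of vehicle library 2 is the highest of the 5, ranging from 0.112 in complex II to 0.203 in complex IV.

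**Figure D3:**
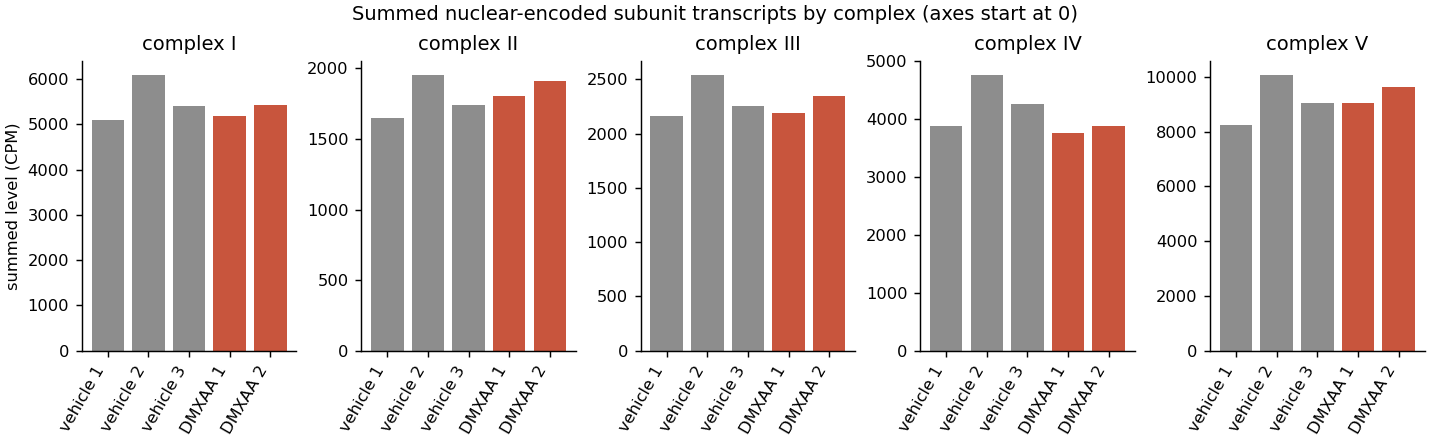
Summed level of the nuclear-encoded members of each complex in each library (y axis, CPM, starting at 0), with grey bars for vehicle and red bars for DMXAA. The DMXAA bars lie within the vehicle range in complexes I, II, III and V, and in complex IV DMXAA library 1 (3764 CPM) lies below the lowest vehicle library (3875 CPM).

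Complex I takes electrons from NADH and is the largest of the 5 complexes. Its 39 members summed to 5091, 6090 and 5392 CPM with vehicle and 5173 and 5419 CPM with DMXAA, and their median log2 fold change was -0.05. At an unadjusted p below 0.05 there were 1 lower member, Ndufa1, and 1 higher, Ndufa4l2, where the shares over all tested genes were 2.65% lower and 3.89% higher.

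Ndufa1 encodes a small membrane-anchored accessory subunit needed for assembly of the complex and lies on the X chromosome (GRCm38, X from 37187588 to 37191163, minus strand). Its level was 98.7, 115 and 112 CPM with vehicle and 83.2 and 77.1 CPM with DMXAA, 108 ± 8.51 (SD, n = 3) and 80.1 ± 4.33 (n = 2). Both DMXAA libraries lay below all vehicle libraries. The log2 fold change was -0.44 (SE 0.10, 95% interval -0.68 to -0.19), the lowest of all tested members, and the edgeR adjusted p was 0.715. It was between -0.38 and -0.50 when any 1 library was left out.

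Ndufa4l2, a paralogue of Ndufa4 known as a target of hypoxia-inducible factor, was at 4.92, 3.35 and 3.16 CPM with vehicle and 6.16 and 6.87 CPM with DMXAA. The groups did not overlap, and the log2 fold change of 0.77 (SE 0.26, edgeR adjusted p = 0.736) was the highest of the members. The gene (10 from 127514967 to 127517154) overlaps exons of Shmt2 on the opposite strand. Shmt2 had 16638 reads in all, against 456 for Ndufa4l2, and was at 178, 216 and 150 CPM with vehicle and 174 and 185 CPM with DMXAA, in an order unlike that of Ndufa4l2. The strand setting of the counting is not given in the sources used here, so reads of the pair cannot be told apart.

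The 7 nuclear subunits of the catalytic core, which carry the flavin, the iron-sulfur clusters and the quinone site, had a median log2 fold change of 0.00 and summed to 1464, 1736 and 1552 CPM with vehicle and 1578 and 1629 CPM with DMXAA. Ndufs1, the largest iron-sulfur subunit, was at 250, 265 and 248 CPM with vehicle and 278 and 293 CPM with DMXAA, the groups not overlapping (log2 fold change 0.17, SE 0.09, edgeR adjusted p = 0.758). Its exons overlap those of Eef1b2, which was at 183, 214 and 220 CPM with vehicle and 186 and 189 CPM with DMXAA. The NADH-binding Ndufv1 was at 286 ± 36.6 and 270 ± 5.74 CPM and the iron-sulfur subunit Ndufv2 at 219 ± 12.9 and 224 ± 13.1. Ndufs3, Ndufs7 and Ndufs8 had log2 fold changes of -0.04, -0.06 and 0.10. Ndufv1, Ndufv2, Ndufs3, Ndufs7 and Ndufs8 overlapped between the groups.

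The other 30 protein-coding Nduf members had a median log2 fold change of -0.06 and a summed difference of -6.29%. Besides Ndufa1, lower values without overlap were seen for Ndufa3 (137 ± 19.1 and 115 ± 0.172 CPM), Ndufa4 (411, 458 and 407 CPM against 358 and 358 CPM), Ndufa7 (99.8 ± 10.7 and 87.7 ± 1.17) and Ndufb11 (212 ± 17.1 and 188 ± 5.02). All 5 were among small accessory subunits, and their edgeR adjusted p ranged from 0.715 to 0.772. Groups without overlap occurred for 13 of 82 members in the lower direction (15.9%) and 2 in the higher (2.44%), where the shares over all tested genes were 12.3% and 13.7%. Relative to its mean, Ndufa12 varied more within vehicle than any other member above 10 CPM, with 38.1, 53.4 and 77.6 CPM, and was at 44.2 and 57.6 CPM with DMXAA.

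Complex II, succinate dehydrogenase, is the only complex with no mitochondrially encoded subunit and also works in the citric acid cycle. Its 4 members summed to 1648, 1954 and 1742 CPM with vehicle and 1805 and 1914 CPM with DMXAA, with a median log2 fold change of 0.07. The flavoprotein Sdha was at 756, 873 and 808 CPM with vehicle and 827 and 864 CPM with DMXAA (log2 fold change 0.06, 95% interval -0.23 to 0.35), and the iron-sulfur subunit Sdhb at 304, 375 and 329 CPM and 346 and 368 CPM (0.09, -0.20 to 0.38). The membrane anchor Sdhd was at 280, 338 and 292 CPM and 320 and 356 CPM (0.16, -0.13 to 0.45). The other anchor, Sdhc, was at 330 ± 32.8 and 319 ± 10.6 CPM (-0.05, -0.33 to 0.23). All 4 genes were lowest in vehicle library 1 and overlapped between the groups, and 0 of 4 had an unadjusted p below 0.05.

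Complex III passes electrons from ubiquinol to cytochrome c. Its 8 members summed to 2159, 2541 and 2253 CPM with vehicle and 2191 and 2350 CPM with DMXAA, with a median log2 fold change of 0.00. Uqcr11, a small subunit at the edge of the complex (10 from 80402997 to 80406830, minus strand), was at 161, 185 and 170 CPM with vehicle and 132 and 132 CPM with DMXAA. The DMXAA libraries lay below every vehicle library (log2 fold change -0.38, SE 0.10, edgeR adjusted p = 0.724). The estimate was -0.43 without vehicle library 1 and -0.33 without vehicle library 2. The other 7 members overlapped between the groups. Among them the core proteins Uqcrc1 and Uqcrc2 were at 430 ± 34.8 and 446 ± 13.3 CPM and at 364 ± 22.7 and 387 ± 20.8 CPM, and the Rieske iron-sulfur protein Uqcrfs1 was at 435 ± 26.9 and 424 ± 21.0 CPM. The small subunits Uqcr10, Uqcrb, Uqcrh and Uqcrq had log2 fold changes of 0.03, 0.03, -0.14 and -0.10.

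Complex IV, cytochrome c oxidase, had the lowest median estimate of the 5 complexes. Its 17 members summed to 3875, 4765 and 4268 CPM with vehicle and 3764 and 3883 CPM with DMXAA, a difference of -11.1% in the means, although DMXAA library 2 lay above vehicle library 1. The median log2 fold change over its 14 tested members was -0.15, with 13 of 14 estimates below 0 (53.1% of all tested genes). It was -0.22 without vehicle library 1 and -0.06 without vehicle library 2. Groups without overlap, all lower, were seen for 5 of 14 (12.3% of all tested genes): Cox4i1, Cox6c, Cox7a1, Cox7a2 and Cox7b.

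Cox6c, a small membrane-spanning subunit (15 from 35925886 to 35938246, minus strand), was at 407, 466 and 425 CPM with vehicle and 346 and 331 CPM with DMXAA. Its log2 fold change was -0.35 (SE 0.11, edgeR adjusted p = 0.724), and it was the only complex IV member with an unadjusted p below 0.05. Its exons overlap Vps13b on the opposite strand, which had higher values in DMXAA (67.8, 57.6 and 69.2 CPM against 76.1 and 81.9 CPM). Cox4i1, the ubiquitous regulatory subunit 4, was at 702, 879 and 867 CPM with vehicle and 686 and 678 CPM with DMXAA (-0.26, SE 0.14), with vehicle library 1 close to both DMXAA libraries. Cox7a2 was at 258 ± 15.3 and 228 ± 7.68 CPM and Cox7b at 274 ± 24.2 and 243 ± 7.08 CPM. Cox5a, which binds the matrix side of the enzyme, was the only complex IV member tested with an estimate above 0 (175 ± 16.2 and 184 ± 17.4 CPM).

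Several complex IV subunits have tissue-restricted isoforms, and these were compared per exon length, as TPM. Cox4i2, an isoform of lung and smooth muscle, was at 0.151 to 0.257% of Cox4i1 in vehicle, Cox6a2, of heart and skeletal muscle, at 0.0623 to 0.0893% of Cox6a1, and Cox6b2, of testis, at 0.390 to 0.640% of Cox6b1. Cox7a1, of muscle and brown fat, was at 10.5, 10.3 and 11.1% of Cox7a2 in vehicle and 10.6 and 9.88% in DMXAA, which overlapped. Cox8b (7 from 140898945 to 140900446, minus strand) had 223 reads in vehicle library 1 and 0, 4, 0 and 1 reads in vehicle libraries 2 and 3 and DMXAA libraries 1 and 2. In vehicle library 1 this was 12.1 CPM and 3.95% of the ubiquitous isoform Cox8a. The brown fat uncoupling protein gene Ucp1 was at 57.4, 0 and 0.444 CPM with vehicle and 0.0555 and 0.298 CPM with DMXAA, and Cidea at 30.5, 0.114 and 0.333 CPM and at 0 CPM in both DMXAA libraries, so the same library was high for all 3 genes. Cox7a1 was not higher in that library (14.8, 16.1 and 15.6 CPM in vehicle).

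**Figure D4:**
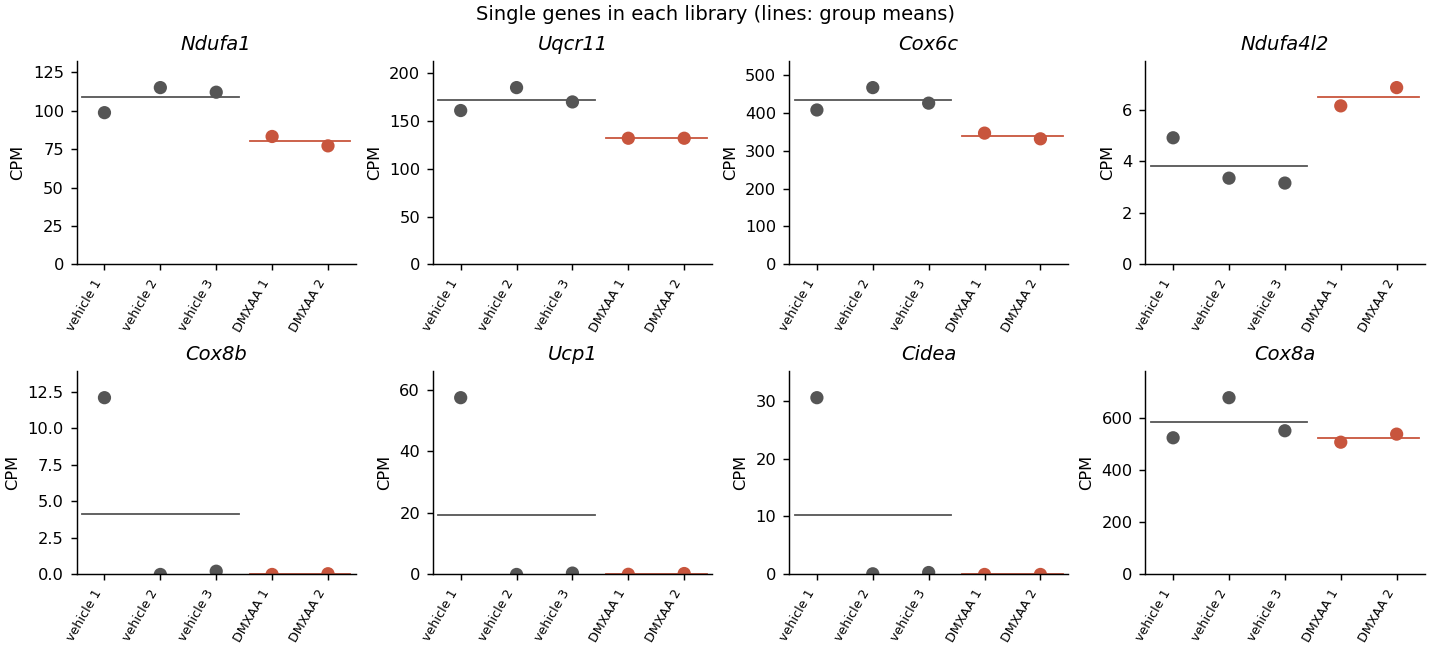
Level (y axis, CPM, starting at 0) in each library of 4 members named in the text, of Cox8b and the brown fat genes Ucp1 and Cidea, and of Cox8a, with lines for group means and red for DMXAA. Ndufa1, Uqcr11 and Cox6c are lower and Ndufa4l2 higher in both DMXAA libraries, whereas Cox8b, Ucp1 and Cidea are high in vehicle library 1.

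Of the 8 isoform ratios computed within libraries, 3 did not overlap between the groups. As single genes, 13.7% of all tested genes did so in the higher direction and 12.3% in the lower. The ratios of Atp5g1 and Atp5g2 share Atp5g3 as reference, and the levels of Ndufa4l2 and Atp5g2 themselves did not overlap. These ratios are therefore not separate results. Ndufa4l2 was at 1.51, 0.925 and 0.979% of Ndufa4 in vehicle and 2.17 and 2.42% in DMXAA. The genes Atp5g1, Atp5g2 and Atp5g3 encode the same mature ring subunit of ATP synthase behind different presequences. Atp5g2 was at 35.1, 35.6 and 32.8% of Atp5g3 in vehicle and 28.9 and 27.0% in DMXAA, and Atp5g1 at 14.9 ± 0.560% and 13.8 ± 0.571%. A two-sided exact permutation test gave p = 0.1 for Ndufa4l2 and Atp5g2, the smallest value that 3 against 2 samples can give, and p = 0.2 for Atp5g1. Adjusted over the 8 ratios these became 0.400, 0.400 and 0.533 (exact permutation), and the other 5 ratios had exact p of 0.4 to 0.9. A ratio within a library does not depend on how libraries are scaled. Its size depends on the lengths used, by 1 factor for every library: per transcript length the vehicle means were 0.589% for Ndufa4l2 (1.14% per union of exons), 26.2% for Atp5g2 (34.5%) and 5.14% for Atp5g1 (14.9%).

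Complex V, ATP synthase, had the largest sum of CPM, which is not corrected for transcript length. Its 17 members summed to 8252, 10070 and 9054 CPM with vehicle and 9027 and 9642 CPM with DMXAA, with a median log2 fold change of -0.06. The catalytic subunit Atp5b, at 2752, 3416 and 3077 CPM with vehicle and 3133 and 3329 CPM with DMXAA, and its partner Atp5a1, at 1819, 2151 and 2040 CPM and 2046 and 2169 CPM, had the highest CPM of the members. Both had a log2 fold change of 0.07, with 95% intervals of -0.33 to 0.46 and -0.28 to 0.42. Of the members, 0 of 17 had an unadjusted p below 0.05 (6.55% of all tested genes). Lower values without overlap were seen for 2 of 17 (12.3% of all tested genes). These were Atp5e, at 226 ± 24.5 and 203 ± 0.600 CPM, and Atp5g2, at 162 ± 20.5 and 144 ± 0.665 CPM. The membrane subunit Atp5k had the lowest estimate (-0.27, SE 0.17), with 81.9, 119 and 91.2 CPM with vehicle and 76.5 and 85.0 CPM with DMXAA, which overlapped. Atp5s was at 19.4 ± 2.01 and 17.1 ± 0.865 CPM. Atp5g3, the main ring subunit gene, was at 537, 676 and 623 CPM and 646 and 697 CPM (0.13, SE 0.13).

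Per length of the union of annotated exons, the levels in vehicle were headed by complex IV and V genes. Cox8a was at 2479 ± 170 TPM, Cox6a1 at 2218 ± 73.1, Atp5b at 1910 ± 83.4, Atp5a1 at 1680 ± 63.3 and Cox4i1 at 1383 ± 118. Each of these means differed from its neighbour by more than either SD. In complex III Uqcr10 was at 999 ± 68.1 and Uqcrfs1 at 840 ± 12.0 TPM, and in complex II Sdhd was at 647 ± 19.8, Sdha at 518 ± 6.99, Sdhb at 394 ± 14.5 and Sdhc at 266 ± 8.75 TPM. In complex I the core subunits Ndufs1 and Ndufv1 were at 82.9 ± 3.29 and 285 ± 16.2 TPM and Ndufa1 was at 680 ± 30.5 TPM. The order depended on the length used. Per length of 1 transcript, an alternative chosen after seeing the data, Atp5b came first at 3145 ± 135 TPM, and Cox4i1 (2087 ± 178), Cox8a (2078 ± 140) and Cox6a1 (2031 ± 65.0) followed within their spread. Atp5b has 4237 bases of exons in union and 1916 in that transcript, and Cox8a 619 and 550. Cox6c moved from 319 ± 0.630 to 1148 ± 3.30 TPM, and in complex II Sdhb (575 ± 20.6) and Sdha (549 ± 7.69) then lay above Sdhd (482 ± 14.1).

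The estimates moved with transcript length. Across the 80 protein-coding members tested, the log2 fold change and transcript length had a Spearman rho of 0.42, and across 10425 genes with an average log2 CPM above 3 it was 0.29 (genes of the same libraries, not independent). The 8 members of up to 500 bases had a median of -0.19, where 93 other genes of that length had -0.17. The 24 members above 500 and up to 700 bases had -0.08 (other genes -0.14), and the 13 members above 1500 and up to 2500 bases had 0.00 (other genes -0.03). The length trend was also seen between vehicle libraries: in vehicle library 2 other genes of up to 500 bases were at 0.155 and those above 5000 bases at -0.105 relative to their mean over the libraries. After each library was corrected for transcript length and GC content, the median of the members was 0.01, with 35 of 82 estimates below 0, and that of complex IV was -0.04. Ndufa1, Uqcr11, Cox6c and Ndufa4l2 then had log2 fold changes of -0.33, -0.25, -0.28 and 0.86.

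**Figure D5:**
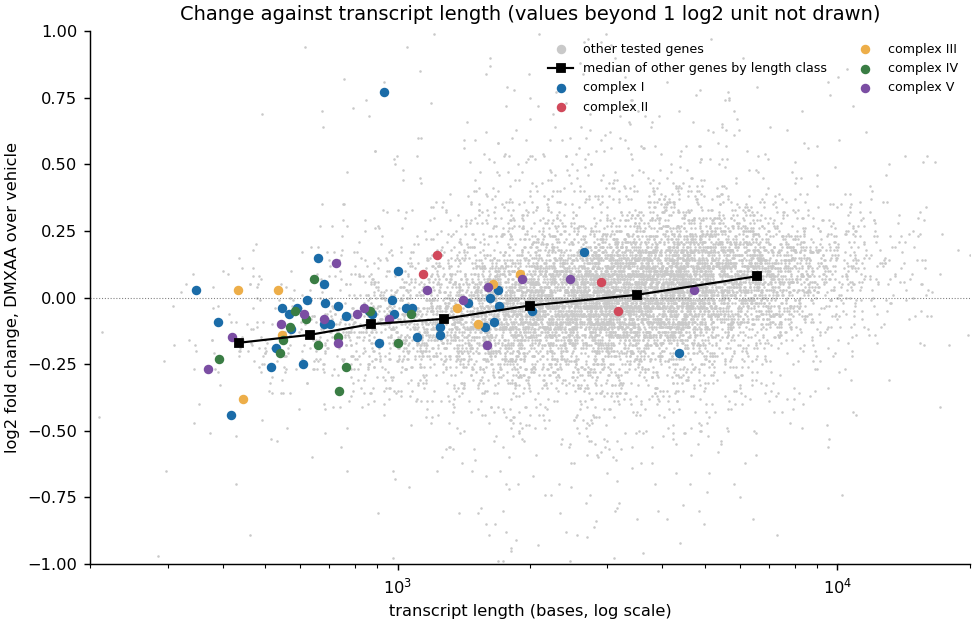
Log2 fold change (y axis) against transcript length (x axis, log scale) for tested genes with an average log2 CPM above 3 in grey, their median by length class in black, and the tested members coloured by complex. Genes beyond 1 log2 unit are not drawn. The black line runs from -0.17 for the shortest class to 0.08 for the longest.

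Cytosolic ribosomal protein genes (94 tested) had a median log2 fold change of -0.17 and mitochondrial ribosomal protein genes (77 tested) of -0.03. Of the cytosolic ones 84 of 94 estimates lay below 0, and groups did not overlap for 25 lower and 1 higher. Their summed difference was -10.5%, near the -11.1% of complex IV, so the lower values were not particular to complex IV. Of the mitochondrial ones 47 of 77 lay below 0, with 9 lower and 3 higher without overlap. Relative to the mean of the 5 libraries the medians were 0.185 and 0.149 in vehicle library 2, close to the 0.183 of the respiratory members.

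Marker genes of kidney cell types were read from the same fit, and none was called (smallest edgeR adjusted p = 0.535, for Slc5a12 of the proximal tubule). Over all tested genes 46.9% of estimates lay above 0. At an unadjusted p below 0.05, 3.89% of all tested genes were higher and 2.65% lower. The summed proximal tubule markers (9 genes, 8 with estimates above 0, 3 higher at an unadjusted p below 0.05) were at 7342 to 9636 CPM with vehicle and 9821 and 10265 CPM with DMXAA. Those of the loop of Henle and distal tubule (8 genes, 5 above 0) were at 5546 to 8836 and at 7467 and 8040 CPM. Of these 8, 1 was lower at an unadjusted p below 0.05, Pvalb (17.6 ± 3.30 and 8.90 ± 0.835 CPM, log2 fold change -0.98, edgeR adjusted p = 0.629), without overlap. None of these 17 markers was at 0. Collecting duct markers (9 genes, 8 tested, 7 of them below 0) summed to 1183, 735 and 755 CPM against 671 and 718 CPM. Endothelial markers (5 of 5 above 0, 2 at an unadjusted p below 0.05) summed to 331, 218 and 303 CPM against 332 and 358 CPM. The 4 smooth muscle markers summed to 187 CPM for vehicle library 1, with 53.6 to 65.4 CPM elsewhere. Erythroid markers (5 of 5 lower without overlap, 12.3% of all tested genes) were at 73.3 to 280 CPM with vehicle and 29.9 and 52.3 CPM with DMXAA. In whole kidney, fewer cells of a type and less RNA per cell cannot be told apart, and the part of these markers in the subunit levels was not tested.

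The remaining genes of the pathway were read from lists. The subunits outside the name patterns had estimates above 0 in 3 of 3 cases: Cyc1, the cytochrome c1 of complex III, was at 366 ± 26.6 and 399 ± 28.2 CPM, the carrier Cycs at 283 ± 41.0 and 326 ± 39.2 CPM, and the acyl carrier protein Ndufab1 at 126 ± 10.5 and 134 ± 8.78 CPM. All 3 overlapped between the groups. Of the assembly factors tested, 0 of 16 for complex I, 0 of 4 for complex II, 0 of 6 for complex III and 0 of 3 for complex V had an unadjusted p below 0.05, with medians of 0.03, -0.10, 0.01 and -0.05. For complex IV 1 of 21 did so (6.55% of all tested genes), the haem-modifying enzyme Cox10. Cox10 was at 18.2, 21.9 and 21.2 CPM with vehicle and 23.5 and 29.5 CPM with DMXAA (log2 fold change 0.38, SE 0.14, edgeR adjusted p = 0.741). The list median was 0.06. Groups without overlap were seen in the higher direction for 5 of its 21 genes (13.7% of all tested genes), among them Coa5, Coa6 and the mitochondrial RNA-binding protein gene Lrpprc (122 ± 8.88 and 143 ± 8.37 CPM), and in the lower direction for Cox14 and Cmc2 (12.3% of all tested genes).

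Among 12 regulators of respiratory genes the coactivator Ppargc1a (PGC-1 alpha) was the only one with an unadjusted p below 0.05. The share over all tested genes was 6.55%, and 3.89% were higher. Ppargc1a was at 96.7, 93.4 and 109 CPM with vehicle and 117 and 131 CPM with DMXAA, higher in both DMXAA libraries (log2 fold change 0.31, SE 0.11, edgeR adjusted p = 0.740). Groups did not overlap for 2 higher and 1 lower of the 12 (13.7% and 12.3% of all tested genes). The list median was 0.04. Its nuclear receptor partner Esrra was at 167 ± 15.4 and 190 ± 16.8 CPM, overlapping. Citric acid cycle enzymes (13 tested) had a median of 0.02 and 0 at an unadjusted p below 0.05. Groups did not overlap for 2 higher and 2 lower enzymes of the 13 (13.7% and 12.3% of all tested genes). Ogdh, a subunit of oxoglutarate dehydrogenase, was among the higher (515, 577 and 533 CPM against 596 and 628 CPM).

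The mitochondrially encoded partners had estimates below 0 for 13 of 13 genes (53.1% of all tested genes), with a median of -0.20. Lower values without overlap were seen for 7 of the 13 (12.3% of all tested genes). At an unadjusted p below 0.05 there was 1 lower gene (2.65% of all tested genes), mt-Atp6 (263, 128 and 196 CPM against 80.2 and 68.2 CPM). The ratio of summed mitochondrial to summed nuclear transcripts overlapped between the groups for complex I (7.33, 6.45 and 7.55 against 7.07 and 5.94). It also overlapped for complex IV (8.49, 7.34 and 8.72 against 9.09 and 8.12). It was lower without overlap for complex III (8.04, 7.16 and 7.81 against 6.91 and 5.67). The same was seen for complex V (0.0321, 0.0130 and 0.0218 against 0.00910 and 0.00725). Levels of these genes lay far apart in vehicle, with mt-Co1 at 34723 ± 2178 CPM. There mt-Atp6, mt-Co2 and mt-Co3 were at 196 ± 67.2, 176 ± 75.7 and 127 ± 19.5 CPM. The complex V ratio thus rests on mt-Atp6 and mt-Atp8 (2.08 ± 0.413 CPM), and that of complex IV almost wholly on mt-Co1. The cause was not tested. How reads with several alignments were counted is not given in the sources used here.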

How the data were processed

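RNA was extracted with Trizol from kidney, and the labels' protocols name both a TruSeq and a NEBNext library kit without saying which sample had which. The authors deposited raw read counts per Ensembl gene, 1 column per sample. The submitters' processing notes name HISAT2, featureCounts, Subread, DESeq2 1.16.1 and mm10. How reads with several alignments were counted, with which annotation and strand setting, is not given in the sources used here, so near-identical copies (Ndufb4 and Ndufb4c, Cox6c and Cox6c2) and overlapping genes have uncertain levels: 29 of the 85 members have an exon overlapping another gene, and for 10 that gene has more than 10% of the member's reads. Columns named CO were read as vehicle and XA as DMXAA, with the replicate numbers of the labels, and 0 columns were left unassigned.

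From the counts, edgeR 4.0.16 in R 4.3.3 was run with TMM scaling, the default expression filter (16226 genes) and group as the only term. The biological coefficient of variation was 19.0%. A gene was called at an adjusted p below 0.05. Symbols, coordinates and lengths came from GENCODE M21, whose assembly GRCm38 is mm10, and 99.9% of IDs matched. Every pair of libraries differed by more than sampling noise (chi-square 7.95 to 42.43 for each degree of freedom). The members and lists were chosen with earlier results of these data known. Named were members with the 4 smallest p per complex, complexes II and III, the catalytic cores, the isoform pairs and up to 4 genes of each list. Values of some genes the rule names are not reported here. Other members and genes, Ucp1's companion Cidea among them, were named after their values were seen. Alternatives were DESeq2 1.42.0, other scaling, filters and empirical Bayes settings, a replicate block, a length and GC correction (loess, span 0.5) and leaving out each library, and for TPM the transcript in place of the union exon length. The procedure was tested on simulated counts.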

Additional observations from a re-analysis of the deposited data

How the results depend on the processing

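The median log2 fold changes of the members and of each complex moved by less than the spread between replicates under every alternative run. That spread, 0.113 to 0.126 by complex, was larger than every complex median but that of complex IV (-0.15), so it is a wide limit. The member median of -0.06 became 0.03 without vehicle library 2 and 0.01 with the length and GC correction. In the runs with both DMXAA libraries 0 members were called (smallest edgeR or DESeq2 adjusted p of a member 0.139, for Ndufa1 in DESeq2). The count of genes called in the whole table was 54 in DESeq2, 34 without an expression filter, 4 with the replicate block and 0 to 2 when 1 library was left out, with 2 without vehicle library 1. Members at an unadjusted p below 0.05 numbered 0 higher with the replicate block. They numbered 9 lower without vehicle library 1, and 2 higher without vehicle library 2 and 0 higher without vehicle library 3. The whole table moved too. In both directions 1528 of 15869 genes had such a p without vehicle library 1, against 1062 of 16226 in the main fit. Without vehicle library 2 it was 1893 of 16036 genes, and without vehicle library 3 it was 846 of 15973. Whether same-numbered libraries were paired could not be judged. Their deviations from the group means correlated at 0.075 and 0.081. The deviations of the 2 DMXAA libraries mirror each other, so the 2 values are not independent, and vehicle library 3 has no partner. The replicate block left Ndufa1 at -0.41 and complex IV at -0.19.

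Small estimates changed sign or reached 0.00. With the length and GC correction Ndufs3 was at 0.03, Ndufs7 at 0.05, Uqcrfs1 at 0.00, Cox6a1 at 0.01, Cox6b1 at 0.02, Cox6b2 at 0.08 and Atp5g1 at -0.02. With the replicate block Uqcrb was at -0.06 and Cox6b2 at 0.01. Over the fits that leave out 1 library, Ndufv2 ran from -0.03 to 0.09, Uqcr10 from -0.07 to 0.14, Uqcrc1 from -0.01 to 0.12, Atp5b from -0.01 to 0.15, Atp5g1 from -0.07 to 0.13, Ndufs3 from -0.11 to 0.04, Ndufs7 from -0.16 to 0.05, Ndufv1 from -0.16 to 0.02, Sdhc from -0.10 to 0.04, Uqcrfs1 from -0.09 to 0.02, Cox6b1 from -0.16 to 0.03, Cox6b2 from -0.29 to 0.24, Uqcrb from -0.11 to 0.17 and Cox4i2 from -0.89 to 0.33. The cause was not tested. Depth limits the rare isoforms: Cox4i2, Cox6a2 and Cox6b2 had 74, 43 and 243 reads in all 5 libraries together.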
